A study of Rattus norvegicus with 29 samples.

Results

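The basolateral amygdala of untreated rats was profiled on 9 one-colour oligonucleotide arrays, which were chosen by their titles as baseline controls and make up 9 of the 29 arrays of the series. The other 20 arrays held the same tissue, with 5 arrays each from rats given pain, isoflurane (a volatile anaesthetic), fear conditioning, or conditioning under isoflurane, at 6 h after the treatment. The labels give no strain, sex or age for any group, and no animal number for the baseline arrays. Nothing states that the 9 baseline arrays came from separate rats, so every spread given here is the spread between these arrays, which may be partly technical.

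The basolateral amygdala is a cortex-like part of the temporal lobe that is known for its role in fear learning. Most of its neurons are glutamatergic projection cells, which are held in check by local GABA-releasing interneurons that also make peptides such as somatostatin, neuropeptide Y and cholecystokinin. Clusters of GABAergic intercalated cells line its borders, and the striatum, the central amygdala and the ventricle with its choroid plexus lie close by.

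Each array read 15866 probe sets other than controls, and 10411 genes were covered by probe sets with 1 gene symbol. A gene's level is given as its signal and as the percentile of that signal among the probe sets of the same array, taken from the gene's probe set with the highest median percentile unless another probe set is named. The signal of a probe set depends on its probes as well as on its transcript, so a percentile ranks signals and not transcript amounts. Genes made in organs other than the brain served as a measured background. Of 66 such genes, the 90th percentile of the list corresponded to percentile 42.9 of the array, and genes whose median percentile was at or under it were called near background. Genes above it were called middle up to the 75th percentile, upper up to the 90th and high beyond. Over all genes, 11.6% were high, 17.9% were upper, 35.1% were middle and 35.3% were near background.

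Every array had been scaled to nearly the same trimmed mean signal, so like medians do not show like depth. The median signal was between 210.7 and 247.75, against 223.85 to 292.2 on the arrays of the other groups. The lower quarter-point of signal was between 59.6 and 92.2, and the median signal of the background genes was between 27.7 and 72.25. The correlation of log2 values between 2 baseline arrays was between 0.931 and 0.977. A probe set's percentile ranged over a median of 12.6 points between its lowest and its highest array, over 2.36 points in the high band and over 16.2 points near background. Of 1567 probe sets in the high band, 1197 were at or above the 90th percentile on all 9 arrays. Replicates 1, 2 and 9 had the lowest correlation with the mean of the others, and replicates 6, 7 and 8 had the largest share of probe sets under a signal of 16, up to 10.7% of them. The first principal component, the axis on which these arrays differed most, held 26.9% of the variance. It was -22.2 to -11.1 on replicates 1 to 3. On replicates 4 and 5 it was 4.1 and -3.8, and on replicates 6 to 9 it was 9.5 to 14.6. Fos, Tac3, Slc17a6 and Adora2a were among the genes weighted to the low end, and Gzmm, Palmd, Apc and Zfp423 to the high end. Several of these had signals near background on some arrays. The lowest signals were 66.6 for Fos, 55.5 for Tac3, 75.3 for Adora2a and 260.9 for Slc17a6. They were 22.6 for Gzmm, 78.8 for Palmd, 19 for Apc and 547 for Zfp423. The part of array order or handling was not tested. The ranks were close to those of the other groups, as a description over probe sets that share the same arrays. The Spearman correlation of median percentiles over probe sets was 0.991 with the pain and conditioning groups and 0.992 with both isoflurane groups.

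The brightest genes were mostly those that all cells use, with some of glia and neurons. The 20 genes with the highest median percentile were COX2 and COX1 (mitochondrially encoded subunits of cytochrome c oxidase), Zwint, Tmsb4x (an actin-binding peptide), Apoe (a lipid carrier made by astrocytes), the ribosomal protein genes Rps23, Rps29, Rpl3 and Rpl27a, Mbp (myelin basic protein), Gnas (a stimulatory G protein subunit), Cst3 (a protease inhibitor), Sparcl1, Cpe (carboxypeptidase E, which processes peptide hormones), Prnp (the prion protein), Aldoa (a glycolytic aldolase), S100b (an astrocyte calcium-binding protein), Calm2 (calmodulin), Cox8a and Rtn1 (a neuronal reticulon). Apoe had a lowest, median and highest signal of 10030.2, 13171 and 13948, and Mbp had 8396, 11420.3 and 14271. On every one of the 9 arrays both stood above the 99th percentile.

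**Figure D1:**
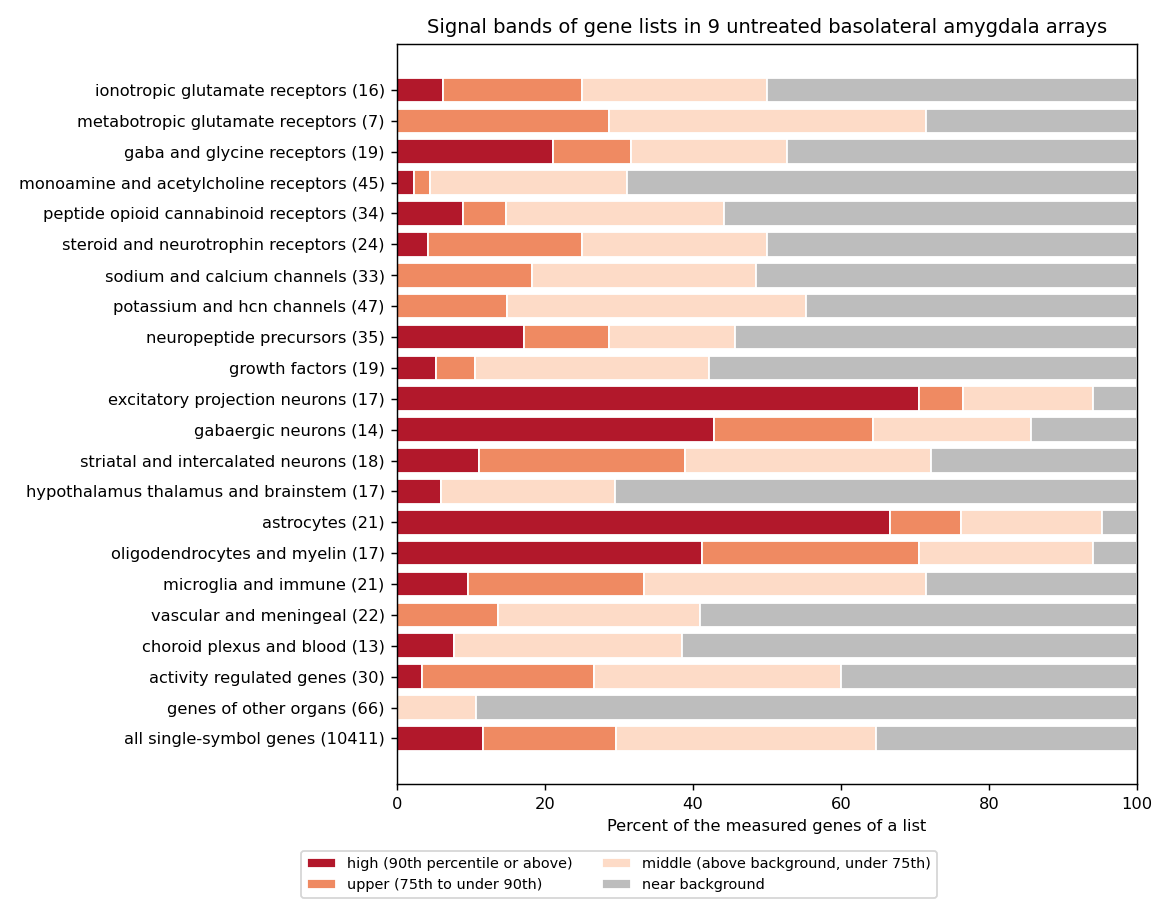
Share of the measured genes of each list in each of 4 signal bands, in percent (x axis), for 20 lists and the background list, with the number of genes measured in brackets and all 10411 genes in the bottom row. Astrocyte and excitatory neuron markers have the longest high segments, with 14 of 21 and 12 of 17 genes, and monoamine and acetylcholine receptors have 1 of 45.

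Markers of the main brain cell types were read from lists chosen with earlier results of these data known, and their counts are set against the shares over all genes given above. Among markers of excitatory projection neurons, 12 of 17 measured genes were high, 1 was upper, 3 were middle and 1 was near background, with a median percentile of 95.4 against 57.0 over all genes. Slc17a7, which encodes the vesicular glutamate transporter of cortical projection neurons, had a lowest, median and highest signal of 1537, 3451 and 4815. Camk2a, the alpha subunit of the calcium and calmodulin kinase of excitatory synapses, had 929, 1986 and 3381, and Tbr1, a transcription factor of cortical projection neurons, was near background at percentile 30.9. Slc17a6, the transporter more typical of thalamic and other subcortical glutamate neurons, stood at percentile 66.4.

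Among GABAergic neuron markers 6 of 14 were high, 3 were upper, 3 were middle and 2 were near background. Gad1, which makes GABA from glutamate, had a signal of 2572, 3683 and 6024 at its lowest, median and highest array, and its second probe set stood lower, at percentile 55.6. Gad2, the other such enzyme, was at percentile 51.0 with 115, 224 and 611. The peptide genes Sst (somatostatin) and Npy (neuropeptide Y) and the calcium-binding protein genes Calb1 and Calb2 were high, while Pvalb, the marker of fast-spiking basket cells, was in the middle band at percentile 57.6. The arrays held both excitatory and inhibitory markers, and in tissue of mixed cells a smaller number of cells of a type and less RNA per cell cannot be told apart.

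Astrocyte markers were high in 14 of 21 cases, with a median percentile of 96.0. S100b, Aldoc (a glycolytic enzyme of astrocytes), Ndrg2, Clu (clusterin), Gja1 (connexin 43, a gap junction protein), Slc1a3 (a glutamate transporter) and Glul (glutamine synthetase) were above the 98th percentile in median. Gfap, the astrocyte intermediate filament, had a signal of 3149, 3787 and 5499 at its lowest, median and highest array, and Aqp4, the water channel of astrocyte endfeet, had 2239, 2888 and 3491. Slc1a2, the main glutamate transporter of astrocytes, was read at percentile 56.1, and Kcnj10, the inward rectifier of astrocytes, was near background at percentile 27.4.

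Oligodendrocyte and myelin genes were high in 7 of 17 cases and upper in 5 more, with a median percentile of 87.3. Mog, a protein of the outer myelin surface, had a signal of 544, 714 and 979 at its lowest, median and highest array. Microglial and immune markers had 2 high genes of 21, B2m and Ctss (a lysosomal protease), with C1qa, a complement subunit made by microglia, at percentile 87.8. Itgam, the CD11b surface marker, was near background at percentile 34.8. Vascular and meningeal markers had no gene in the high band, with Cldn5, the tight junction protein of brain endothelium, at percentile 57.7. Of 17 hypothalamic, thalamic and brainstem markers, 12 were near background, among them Th (the rate-limiting enzyme of catecholamine synthesis) at percentile 36.2 and Oxt (oxytocin) at percentile 29.7.

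The highest gene of the background list was Acta1, the actin of skeletal muscle, with a lowest, median and highest signal of 436, 552 and 649. No list member of that kind reached the upper band.

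Ionotropic glutamate receptors carry fast excitation, as AMPA (Gria), NMDA (Grin) and kainate (Grik) types. Of 16 measured subunits 1 was high, 3 were upper, 4 were middle and 8 were near background, against 35.3% near background over all genes. Gria2, the AMPA subunit that limits calcium entry, had a signal of 2850.3, 3139 and 4365 at its lowest, median and highest array. Grin1, the obligatory NMDA subunit, had 1279.6, 1316 and 1645, which was above the 88th percentile on every array, although its second probe set stood at percentile 21.7. Gria3 was also upper, at percentile 84.7, and Gria1 was middle at percentile 61.9. The NMDA subunits Grin2a and Grin2b were near background, at percentiles 37.9 and 41.7. Metabotropic receptors ranged between percentile 29.3 (Grm6) and percentile 82.0 (Grm3), with Grm5 near background.

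GABA and glycine receptors carry fast and slow inhibition. Of 19 measured genes 4 were high, 2 were upper, 4 were middle and 9 were near background. Gabbr1 and Gabbr2, the subunits of the metabotropic GABA-B receptor, had median percentiles of 98.3 and 95.4, and Gabbr1 had a lowest, median and highest signal of 4202, 4804 and 6032. Another Gabbr1 probe set stood at percentile 13.8. The GABA-A subunits Gabrb2 and Gabrb1 were high, and Gabra5, the subunit of extrasynaptic receptors in forebrain, was upper with 634, 891 and 1267.

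Monoamine and acetylcholine receptors modulate arousal and emotional learning. They were mostly near background, with 31 of 45 genes there, 12 in the middle band, 1 upper and 1 high. The high one was Htr2c, a serotonin receptor that couples to phospholipase C, with a lowest, median and highest signal of 995, 1584 and 2129. Hrh3, a presynaptic histamine receptor, was upper at percentile 86.5. Drd1 and Drd2, the main dopamine receptors, were in the middle band at percentiles 67.1 and 49.5. Chrm1, Htr1a and Adra1a, receptors for acetylcholine, serotonin and noradrenaline, were at percentiles 12.2, 23.8 and 13.9.

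Receptors for peptides, opioids, cannabinoids and adenosine had 19 of 34 genes near background, 10 in the middle band, 2 upper and 3 high. Cnr1, the cannabinoid receptor carried by cholecystokinin interneurons, had a signal of 1295, 1932 and 2406 at its lowest, median and highest array. Ntsr2, a neurotensin receptor of astrocytes, and Adcyap1r1, the receptor of the peptide PACAP, were also high. Oprm1, the mu opioid receptor, was near background at percentile 31.1 and Oxtr, the oxytocin receptor, at percentile 5.8. Of the steroid and neurotrophin receptors Nr3c1, the glucocorticoid receptor, was in the middle band at percentile 72.7, but its second probe set stood at percentile 12.3. Ntrk2, the receptor of BDNF, was upper at percentile 81.4 and had another probe set at percentile 15.4. Such disagreement was common: of 1868 genes with several probe sets, 753 had probe sets whose median percentiles differed by over 30 points. Some examples among the genes named as high or upper follow, and they are not all the cases. The lowest probe set stood at percentile 1.6 for Apoe, 4.2 for Kcnab2, 5.5 for Adcyap1r1 and 6.0 for Gnas. It stood at 11.1 for Clu, 18.5 for Kcnip2 and 23.3 for Gja1. For Gabrb2, Camk2a, Gabbr2 and Htr2c it stood at 31.1, 31.4, 34.2 and 51.6.

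Voltage-gated channels gave no gene in the high band. Of 33 sodium and calcium channel genes 6 were upper and 17 were near background. Scn2a, a sodium channel of axon initial segments, had a lowest, median and highest signal of 1007, 1251 and 1610.4, and Cacna1a, the P/Q-type calcium channel of presynaptic terminals, was near background at percentile 40.3. Of 47 potassium and HCN channel genes 7 were upper and 21 were near background. Kcnip2 and Kcnab2, auxiliary subunits of potassium channels, were the 2 with the highest median percentiles, at 89.7 and 88.6. Kcnk2, Kcnk3 and Kcnk9 form background potassium channels that volatile anaesthetics are known to open, and stood at percentiles 65.6, 41.9 and 29.8. Hcn2, a pacemaker channel, was upper.

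Neuropeptide precursors ran from the top to the bottom of the arrays. Of 35 measured precursors 6 were high, 4 were upper, 6 were middle and 19 were near background. Cck, which encodes cholecystokinin, had a lowest, median and highest signal of 2725, 6275 and 7219, and Penk, the precursor of the enkephalins, had 1847, 5032 and 10358. Sst had 2198, 3209 and 3932, and Npy had 1745, 2345 and 2813. Chgb and Scg2, granins of the dense-core vesicle, were high as well. Near background were Crh (corticotropin-releasing hormone) at percentile 25.1, Pdyn (prodynorphin) at percentile 24.2 and Pomc (proopiomelanocortin) at percentile 7.0. Among growth factors Ptn (pleiotrophin) was high, and Bdnf, the neurotrophin of activity-dependent plasticity, was in the middle band with 139.9, 222 and 359.

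**Figure D2:**
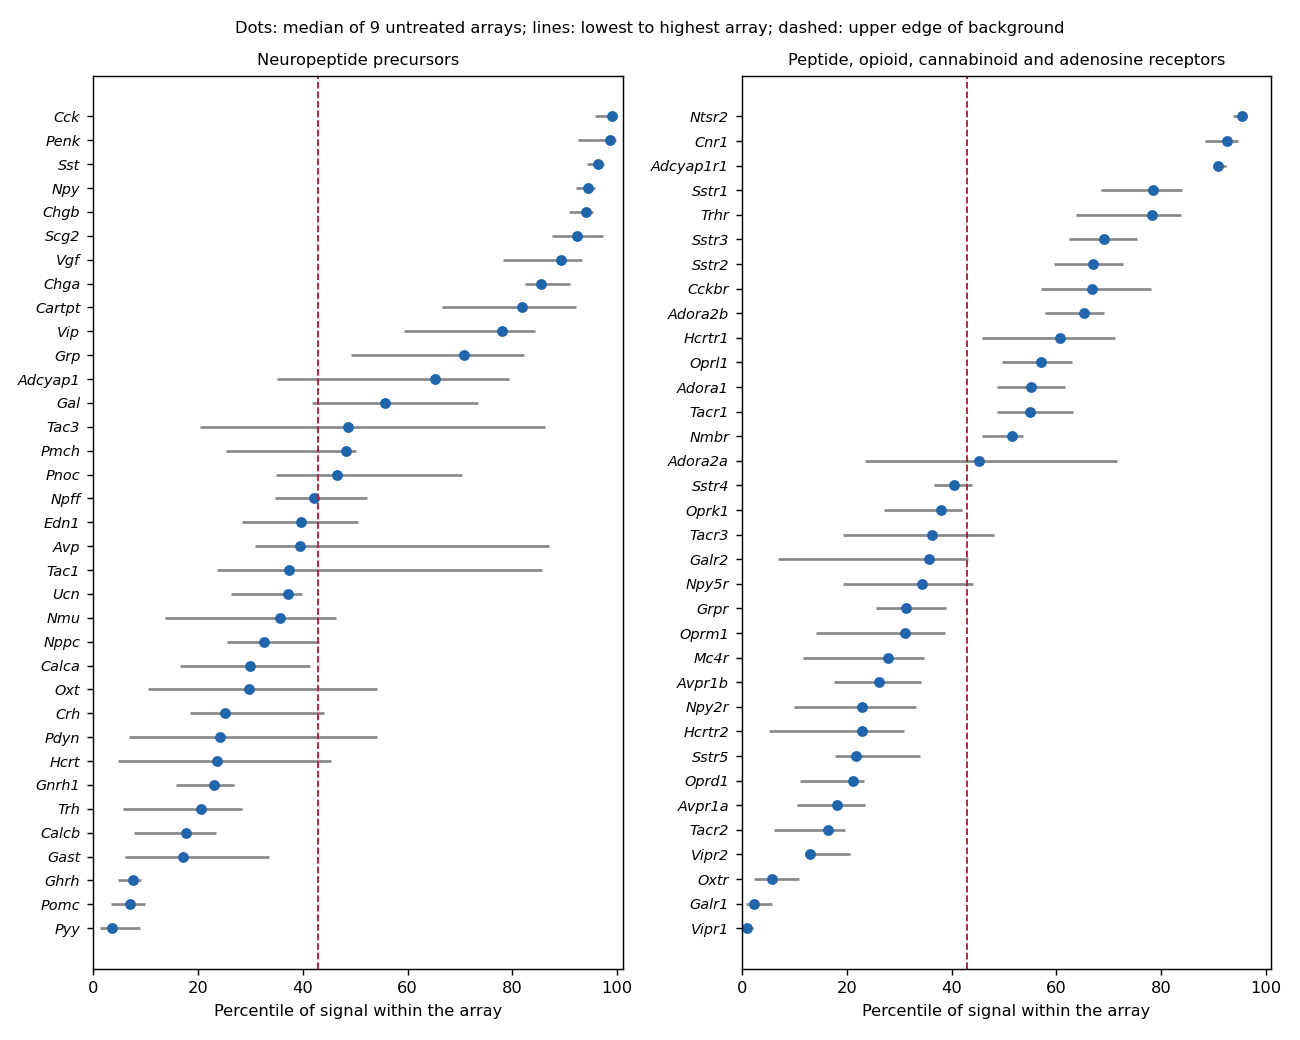
Percentile of signal within the array (x axis, 0 to 100) of the 35 measured neuropeptide precursors (left) and of the 34 peptide, opioid, cannabinoid and adenosine receptors (right), with a dot at the median of the 9 baseline arrays and a line between the lowest and highest array. The dashed line is the upper edge of background, at percentile 42.9, and Avp, Tac1, Tac3 and Adora2a have lines that cross it widely.

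Activity-regulated genes are switched on within minutes to hours of neuronal firing. Of 30 measured genes 1 was high, 7 were upper, 10 were middle and 12 were near background in untreated tissue. Egr1, an immediate early transcription factor, had a lowest, median and highest signal of 1455, 1634 and 1958. Arc, a synaptic protein made after activity, had 389, 639.7 and 1054, and Fos had 66.6, 217 and 592. On replicate 9 Fos was lowest and on replicate 2 it was highest, and Arc was also lowest on replicate 9.

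The variation between untreated arrays was ranked by the SD of log2 values divided by the median SD of probe sets of like signal, over the 9045 probe sets above background. The median SD was 0.22 log2 units, with 345 probe sets over 0.5 and 36 over 1. The 5% of probe sets with the largest ratios had a ratio of 2.05 or more. Their spread was read again in the 20 arrays of the other groups, which the ranking did not use. Of the 452, 200 (44.2%) were also among the top 5% there, where 5.0% of all probe sets are by definition, and the rank correlation of the ratios over probe sets was 0.50 as a description. Of the 25 genes with the largest ratios 23 were also in the top 5% of the other arrays, the exceptions being Enpp2 and Zfp423. The last gene inside the 25 was Xylt2, with a ratio of 4.30, and the first outside was Tac3, with 4.23.

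**Figure D3:**
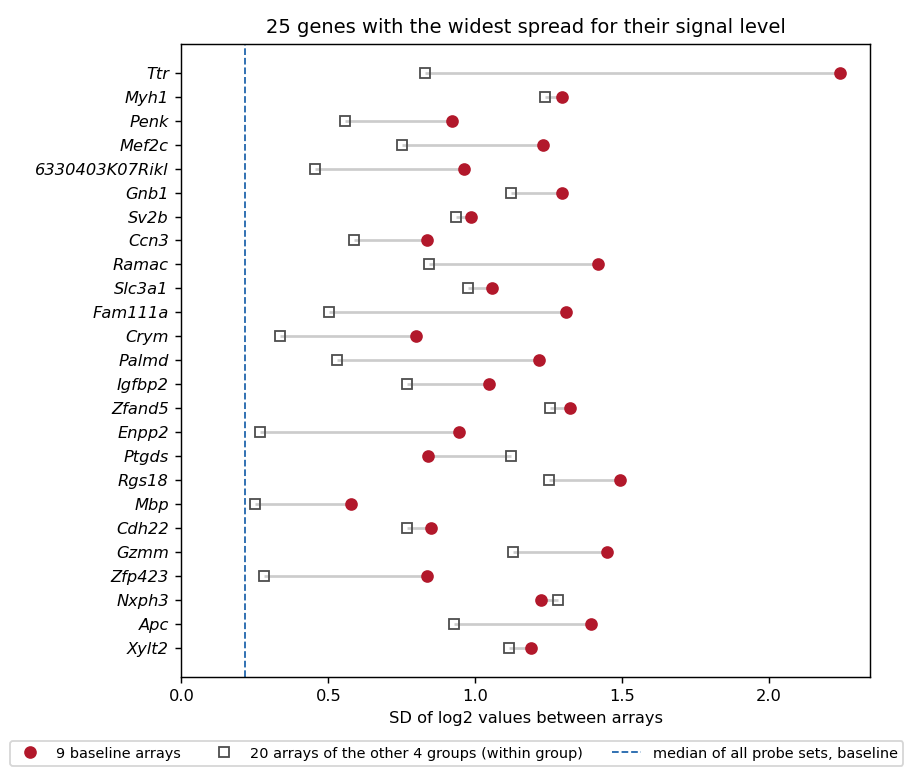
SD of log2 values between arrays (x axis) for the 25 genes with the largest spread for their signal level, as filled points for the 9 baseline arrays and open squares for the spread within the other 4 groups (20 arrays), with a dashed line at the median SD of all probe sets in baseline. Ttr is the widest at 2.24 in baseline, and Ptgds and Nxph3 lie higher in the other groups.

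Ttr, which encodes transthyretin, the thyroid hormone carrier made by the choroid plexus, varied the most. Its median percentile was 43.2, just above the background edge of 42.9. Its signal was 15284 on replicate 1, 1420.1 on replicate 8, and between 128 and 322 on the other 7 arrays. Its SD was 2.24 log2 units in baseline, 0.83 within the other groups, and 1.12 in baseline without replicate 1. Replicate 1 was also the highest array for Enpp2 (autotaxin, a phospholipid enzyme of choroid plexus and myelin), at 4154 against at most 898 on the other arrays, and for Igfbp2 (an insulin-like growth factor binding protein of meninges and choroid plexus), at 2644. Folr1 (a folate receptor of choroid plexus) and Mdk (the growth factor midkine) were highest on it too, at 891 and 1926. Cldn2, a tight junction protein of choroid plexus, had 343 there and at most 110.0 elsewhere. Kl, another choroid plexus gene, was near background on every array. Aqp1, of the choroid plexus and blood list, was highest on replicate 3 at 576, with 505 on replicate 1. On replicate 8, where Ttr had 1420.1, Folr1 had 228 and Aqp1 had 235.5. Ptgds, a prostaglandin synthase of meninges, was high on replicates 1 and 6, at 4016 and 3844, and its SD was 0.84 log2 units in baseline and 1.12 within the other groups. The part of adjoining tissue in these values was not tested.

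**Figure D4:**
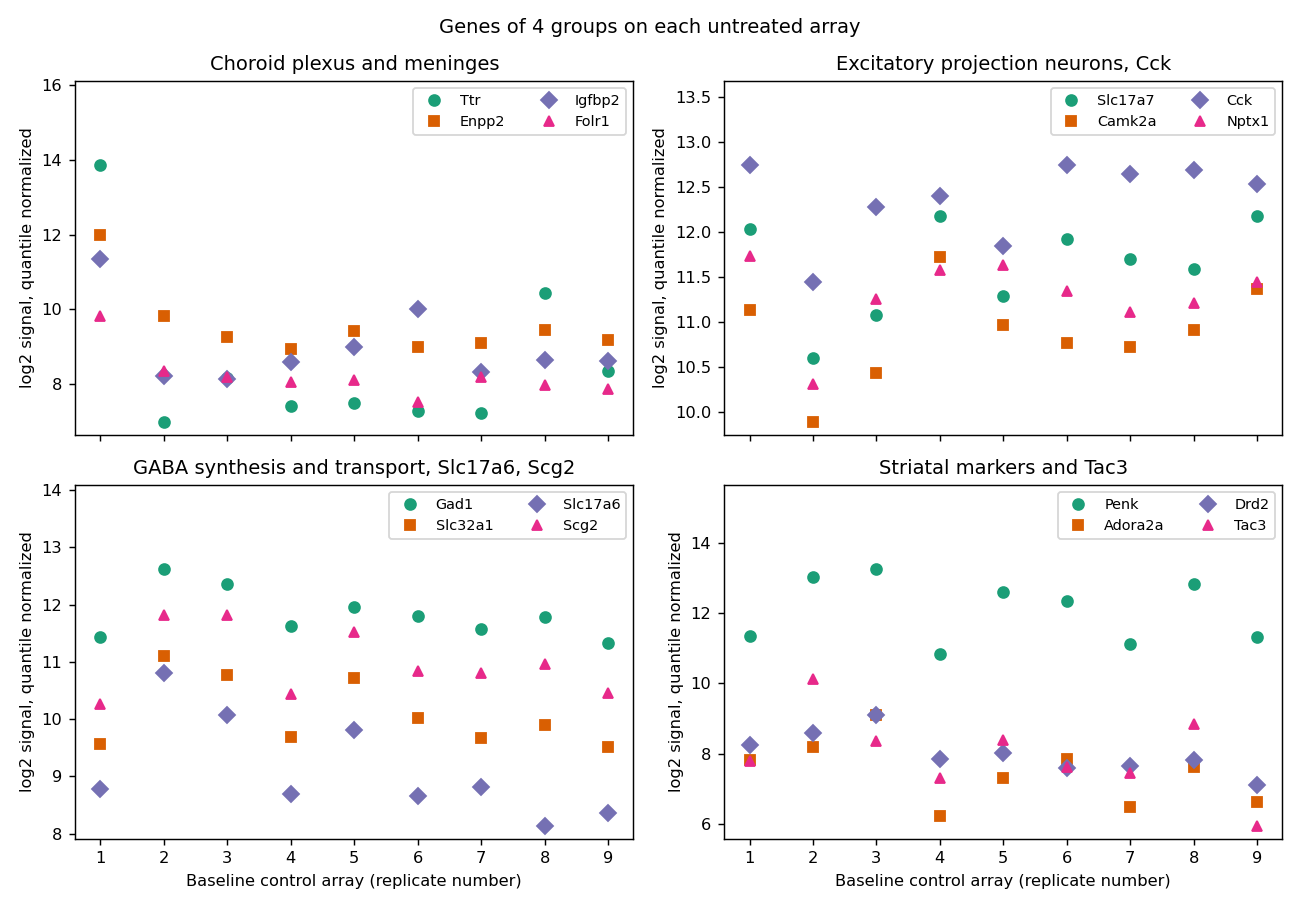
log2 signal after quantile normalization (y axis) of 16 genes on each of the 9 baseline arrays (x axis, replicate number), in 4 panels. Ttr, Enpp2, Igfbp2 and Folr1 are highest on replicate 1; Slc17a7, Camk2a, Cck and Nptx1 are lowest on replicate 2; Gad1, Slc32a1 and Slc17a6 are highest on replicate 2; and Penk, Adora2a and Drd2 are highest on replicate 3.

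Of 508 measured genes in the lists, 259 were near background and 53 were among the top 5% by ratio. Over all genes above background the share was 4.26%. The lists were chosen with earlier results of these data known, and the 53 include Nppa of the background list. Of these 53, 22 (41.5%) were also in the top 5% of the other arrays. Neuropeptide precursors gave 11 of 16 above background, GABAergic markers 7 of 12, striatal markers 7 of 13, excitatory markers 5 of 16, and choroid plexus and blood genes 4 of 5. Ionotropic and metabotropic glutamate receptors and GABA receptors gave none of 23. Some of these counts rested on 1 array. Without replicate 3 striatal markers gave 3, as Drd2, Ppp1r1b, Rgs9 and Rasd2 left the top 5%. Without replicate 2 GABAergic markers gave 3, as Gad2, Calb1, Reln and Vip left it, and 1 metabotropic receptor, Grm8, entered it. The other counts named here stayed within 1.5 times without any 1 array. Replicate 1 was the highest array for 15 of the 53 genes, replicate 3 for 14 and replicate 2 for 11. Replicate 9 was the lowest array for 14 and replicate 2 for 11.

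**Figure D5:**
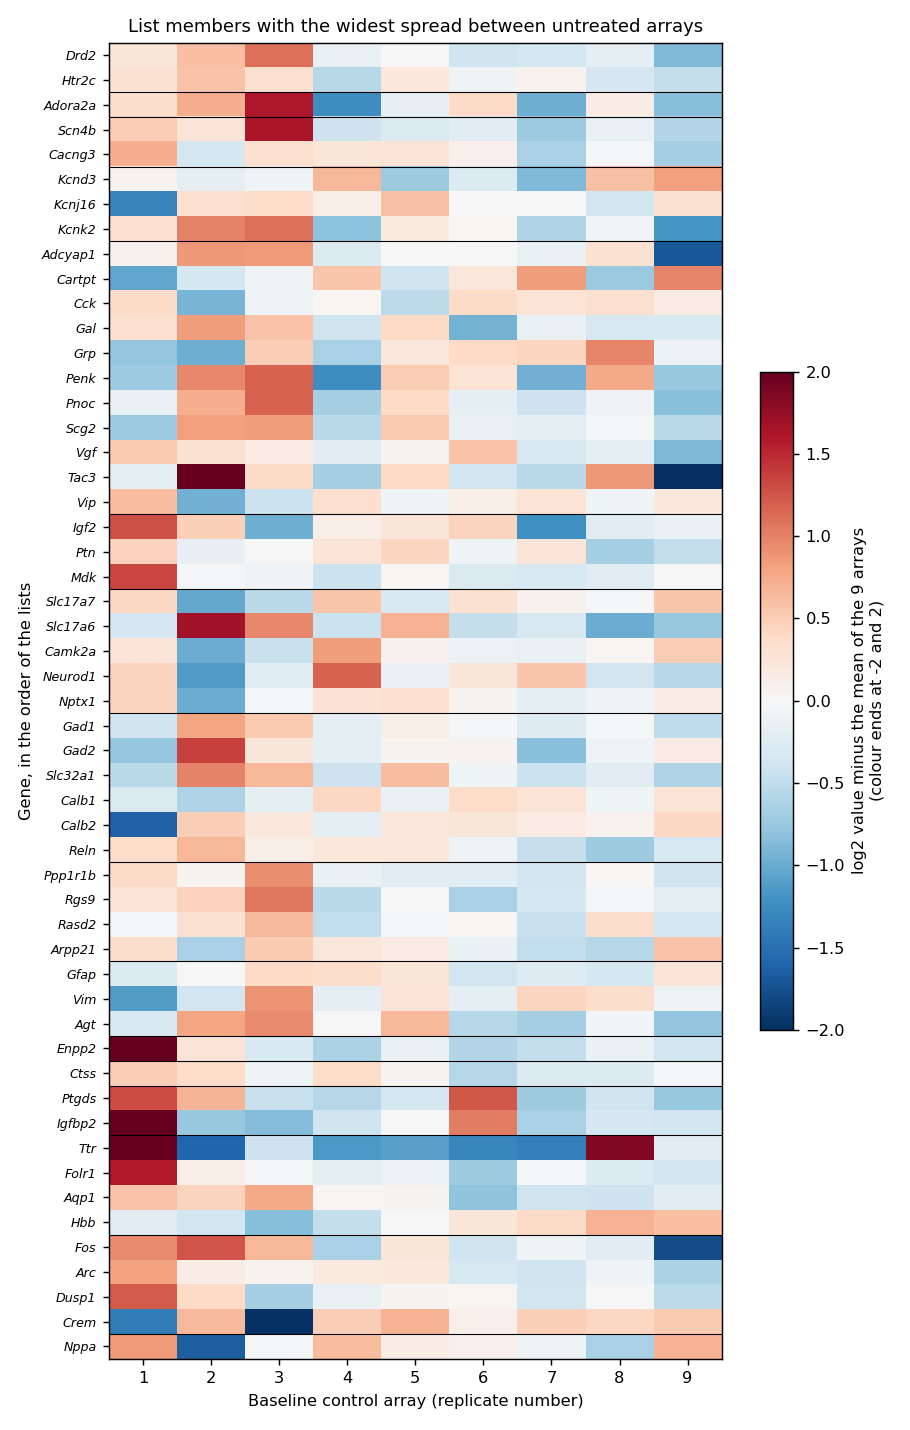
log2 value minus the gene's mean over the 9 baseline arrays (colour, from -2 in blue to 2 in red) for the 53 list genes among the top 5% of SD ratios (rows) on each array (columns), grouped by list. Replicate 1 is red for Ttr, Enpp2 and Igfbp2, replicate 2 is blue for Slc17a7, Camk2a and Neurod1, and replicate 9 is blue for Fos, Adcyap1 and Tac3.

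Replicate 2 was the lowest array for several excitatory markers, and was the highest for some inhibitory markers and the lowest for others. Slc17a7 had its lowest signal on replicate 2, at 1537, and its highest on replicate 4, at 4815. Camk2a, Nptx1 (a synaptic pentraxin), Neurod1 (a neuronal transcription factor) and Cck were also lowest on replicate 2, and Crym (mu-crystallin, a thyroid hormone binding protein) was lowest there at 753 against at least 2469 elsewhere. The same array was the highest for Gad1, at 6024, for Gad2, at 611, for Slc32a1 (the vesicular GABA transporter), at 2146, and for Slc17a6, at 1756. Of the other inhibitory markers Pvalb, Calb1, Npy and Vip (the precursor of vasoactive intestinal peptide) were lowest on replicate 2, at 143, 1684, 1745 and 346. Over the 9 arrays Slc32a1 had a lowest, median and highest signal of 719, 968 and 2146. Calb2, a calcium-binding protein of interneurons, stood apart on replicate 1, with 732 there and at least 2034 on the other arrays. The share of each cell type in the arrays was not tested.

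Several markers of striatal and intercalated neurons were highest on replicate 3. Penk had 10358 on replicate 3 and 1847 on replicate 4, with an SD of 0.92 log2 units in baseline and 0.56 within the other groups. Adora2a, the adenosine receptor of striatopallidal neurons, had 542 on replicate 3 and 75.3 on replicate 4. Its median percentile was 45.3, little above the background edge of 42.9, and its second probe set stood at percentile 11.7. Drd2, Scn4b (a sodium channel subunit of striatal neurons), Ppp1r1b (the DARPP-32 phosphatase regulator) and Rgs9 were also highest on replicate 3. Across the 9 arrays Penk and Adora2a had Pearson r = 0.83 (exact permutation p = 0.00534, adjusted 0.0641 over 12 pairs) and Spearman rho = 0.87 (exact permutation p = 0.00451, adjusted 0.0271). Without the 2 arrays farthest from the median of Penk, r was 0.69.

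Several peptide precursors were wide too. Tac3, the precursor of neurokinin B, had a lowest, median and highest signal of 55.5, 232 and 1106, with the highest on replicate 2. Scg2 was high on replicates 2, 3 and 5 and had 1219.6, 1903 and 3702, and Cartpt, the precursor of the CART peptides, had 439, 869 and 1812 with its lowest array being replicate 1. Vgf, a secreted growth factor-inducible peptide precursor, had 715, 1382 and 2086. Its lowest array was replicate 9, which was the highest for Cartpt, and without replicate 9 Vgf left the top 5% by ratio. The promoters of the 3 last named are shown because each holds the full cAMP response element, TGACGTCA (a palindrome, so both strands read alike, and no other motif was searched), in the 250 bases before its start; it is in capitals. The sequences are from RefSeq on GRCr8, all on the minus strand: Cartpt at chr2:32991236-32991485, Scg2 at chr9:88256867-88257116 and Vgf at chr12:25277021-25277270.
Cartpt: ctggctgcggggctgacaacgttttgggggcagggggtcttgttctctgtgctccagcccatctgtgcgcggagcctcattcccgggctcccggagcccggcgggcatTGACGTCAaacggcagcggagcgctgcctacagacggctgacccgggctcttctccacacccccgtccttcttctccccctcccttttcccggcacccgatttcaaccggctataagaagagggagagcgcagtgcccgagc
Scg2: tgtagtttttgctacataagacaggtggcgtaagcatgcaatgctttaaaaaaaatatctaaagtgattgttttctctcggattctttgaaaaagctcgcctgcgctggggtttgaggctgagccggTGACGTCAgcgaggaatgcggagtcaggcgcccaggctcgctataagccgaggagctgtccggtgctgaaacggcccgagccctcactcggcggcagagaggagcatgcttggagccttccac
Vgf: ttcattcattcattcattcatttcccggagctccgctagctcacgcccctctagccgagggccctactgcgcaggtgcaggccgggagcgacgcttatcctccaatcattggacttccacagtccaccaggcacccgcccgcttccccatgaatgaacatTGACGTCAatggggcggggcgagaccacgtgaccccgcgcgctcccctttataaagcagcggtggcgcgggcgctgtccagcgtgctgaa

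Of the 11 wide precursors 7 had a promoter entry and 3 held the element. Of 5 other precursors above background 3 had an entry, and none of these held it. Of 19 near background 15 had an entry, and 1 held it (Ucn, urocortin). Precursors without an entry were not searched, so these counts do not compare wide precursors with the others. The part of the element in the spread was not tested. Of all 33469 promoters of the same length 531 (1.59%) held it.

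Of 259 list genes near background, 2 reached the 75th percentile on 1 array, against 8 of all 3679 genes near background (0.217%). They were Avp (vasopressin), at 1183, and Tac1 (the precursor of substance P), at 1071, both on replicate 3. Avp was between 101.2 and 236 on the other 8 arrays, and Tac1 between 59 and 335.

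Outside the lists the widest genes were of mixed kinds, and each was ranked by its probe set with the largest ratio, which was not always its brightest. Mef2c, a neuronal transcription factor, had a lowest, median and highest signal of 339, 1027 and 3434, with an SD of 1.23 log2 units over the 9 baseline arrays and 0.75 within the other groups. That probe set stood at percentile 84.6, and the brighter one, at percentile 94.5, had an SD of 0.41. Replicates 1, 4 and 6 were the 3 highest arrays, at 2411 or more, and replicates 2, 3 and 7 were the lowest, at 537 or less. Sv2b, a synaptic vesicle protein, had a lowest, median and highest signal of 870.5, 2052 and 5444, with an SD of 0.99 log2 units over the 9 baseline arrays and 0.93 within the other groups. Zfp423, a zinc finger transcription factor, was at 547, 759.6 and 732 on replicates 1 to 3 and at 1380.3 or more on the other 6 arrays, and Palmd (palmdelphin) was also lowest on replicates 1 to 3. Those 3 arrays also had the lowest 3' minus 5' difference of the Gapdh control probe sets, at 0.092 to 0.14 log2 units against up to 0.44 on the others, while the actin control gave 0.34 to 0.57 on them and 0.19 on replicate 9. The part of either in these values was not tested. Gnb1, a G protein beta subunit, was at 3008 and 2042 on replicates 9 and 3 and at most 666 on the other 7, all read on a probe set at percentile 65.6. The brightest Gnb1 probe set, at percentile 99.4, had an SD of 0.18. Likewise the Myh1 probe set with the largest ratio (a myosin heavy chain of skeletal muscle) was highest on replicates 9 and 3. It stood at percentile 77.2, and the brightest Myh1 probe set, at percentile 95.6, had an SD of 0.23. Whether these probe sets read Myh1 itself was not tested. Ccn3, a secreted matricellular protein, was at 996 and 1689 on replicates 2 and 5 and at 3491 or more on the other 7 arrays. Of the 25 genes 12 had another probe set above background, and in 4 of them, Myh1, Mef2c, Sv2b and Cdh22, another probe set was also among the top 5%. In the other 8 no other probe set above background was among the top 5%. Mbp, for example, had an SD of 0.58 on the wide probe set and 0.14 on the brighter one.

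Whether genes of a shared or a contrasting cell type varied together over the 9 arrays was tested for 12 pairs. The permutation takes the 9 arrays as interchangeable units, which the labels do not show. Its p therefore describes these arrays and does not speak for separate rats. None of them passed by Pearson r after Benjamini-Hochberg adjustment (exact permutation tests, two-sided), and 2 passed by Spearman rho. Besides Penk and Adora2a this was Hbb (a beta globin) and Alas2 (the heme synthesis enzyme of red cells), with Pearson r = 0.75 (exact permutation p = 0.0161, adjusted 0.0964), rho = 0.87 (exact permutation p = 0.00451, adjusted 0.0271) and r = 0.49 without the 2 arrays farthest from the median of Hbb. Hbb was at 4448 or more on replicates 6 to 9 and at 3857 or less on replicates 1 to 5, and replicates 6, 7 and 8 also had the lowest quarter-point of signal, and the part of array background in the low signal of Alas2 was not tested. Fos and Arc had r = 0.71 (exact permutation p = 0.0322, adjusted 0.0967), rho = 0.57 (exact permutation p = 0.121, adjusted 0.332) and r = 0.62 without 2 arrays. Ttr and Kl had r = 0.78 (exact permutation p = 0.0278, adjusted 0.0967) and rho = 0.71 (exact permutation p = 0.0556, adjusted 0.222). Without replicates 1 and 8 Kl was at the floor of 16 on the remaining arrays, so no r could be computed. The other 8 pairs had r between -0.56 and 0.61, with an adjusted p of at least 0.1995 (exact permutation tests).

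Baseline levels were set against the mean of the other 4 groups in limma, to see which genes were particular to untreated tissue. Of 9520 probe sets 0 passed at an adjusted p of 0.05 (0.0%), and 827 had an unadjusted p under 0.05, of which 381 were higher and 446 lower in baseline. The median SE of a difference was 0.091 log2 units. The lowest adjusted p was 0.296. Ctnnd1, which encodes a cadherin-binding catenin, had the lowest p, with a mean log2 value of 8.08 in baseline and 8.55 in the other groups, a difference of -0.47 (SE 0.10, limma adjusted p = 0.296). Fkbp5, a chaperone that glucocorticoids induce, averaged 8.44 in baseline and 8.80 in the other groups, a difference of -0.36 (SE 0.09). Insig1, a sterol-sensing regulator of cholesterol synthesis, averaged 9.87 in baseline and 9.65 in the other groups, a difference of 0.21 (SE 0.05). The 5 genes with the lowest p among those higher in baseline, Trappc8, Zfp821, Insig1, Vps11 and Mef2d, differed by 0.21 to 0.45, and the 5 among those lower, Ctnnd1, P2rx6, Mtf1, Sez6l2 and Fkbp5, by -0.60 to -0.23. None of the 10 passed the adjustment (limma adjusted p = 0.296 for each).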

How the data were processed

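The deposited table held 1 linear signal intensity per probe set and array, scaled by the authors: the mean of each array after trimming 2% at each end was 500.10 to 500.12 in baseline. The scanner software and its version are not given in the sources used here, and the labels name a labelling kit for the baseline and isoflurane arrays only. Probe sets were named from the platform annotation (12783 with 1 symbol, 312 with several, 2771 with none) and 12748 matched RefSeq. Percentiles used the deposited signals. SDs, gene pairs and limma (3.58.1, R 4.3.3, trend, Benjamini-Hochberg) used log2 values, quantile normalized over 29 arrays with a floor of 16. SDs were read against the 500 probe sets nearest in mean, and limma tested probe sets at or above the 40th percentile of mean signal. The SD ranking, the pair test and limma were tested on simulated data. Named genes were the 20 brightest, the ends and key genes of 21 lists, the 25 widest, the pairs, and the 5 lowest p in each direction. The members and lists were chosen with earlier results of these data known. The number of arrays limits the precision.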

Additional observations from a re-analysis of the deposited data

Results flagged for a closer look

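Of 107 genes and 5 array measures examined, 14 genes had 1 baseline array whose value lay farther from the rest than Dixon's critical share of the range. Chance gives this in about 1 of 20, but 73 of the 107 genes, and 13 of the 14, had been chosen for a wide spread on these same arrays, so that rate is no comparison here. Values are log2 signals. Replicate 1 was highest for Ttr at 13.87 (the others 6.99 to 10.43), for Enpp2 at 11.99 (8.94 to 9.84), for Mdk at 10.93 (9.16 to 9.61) and for Folr1 at 9.83 (7.53 to 8.37). The same array was lowest for Calb2 at 9.55 (10.97 to 11.67), for Kcnj16, an inward rectifier, at 7.05 (8.01 to 8.97), and for Xylt2, a xylosyltransferase, at 5.20 (7.24 to 8.85).

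Replicate 2 was lowest for Crym at 9.57 (11.23 to 12.22), for Nptx1 at 10.30 (11.11 to 11.74) and for Nxph3, a neurexophilin, at 5.07 (7.29 to 9.41), and highest for Gad2 at 9.25 (7.05 to 8.12). Replicate 9 was lowest for Adcyap1, the precursor of PACAP, at 7.02 (8.45 to 9.58). Replicate 7 was lowest for Fam111a at 5.05 (7.32 to 9.28). Replicate 4 was highest for Grin1 at 10.68 (10.34 to 10.48).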

How the results depend on the processing

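Near background were 6821 probe sets, 4385 with the threshold at the 75th percentile of the organ genes, and 6702 to 6911 leaving out each array in turn. The lower threshold put 27.7% of probe sets near background. The calls of near background for Grin2a, Grin2b, Cacna1a, Th and Itgam, among others, therefore depend on that choice. Of the variable probe sets 200 were also variable in the other arrays, 340 with no filter on low values, and 191 to 199 leaving out each array. High-band counts of the lists stayed within 1.5 times in 200 of 210 settings; with the mean over a gene's probe sets excitatory markers had 9, oligodendrocyte genes 5 and GABAergic markers 4, and beyond that tolerance astrocyte markers had 9, GABA and glycine receptors 1, peptide receptors 1, striatal markers 1, and steroid and monoamine receptors 0. The count of 1 for monoamine receptors, Htr2c, was also 0 without replicate 1, 2, 3 or 5. Of the 25 widest genes 24 stayed in the top 5% without any 1 array, and Enpp2 did not without replicate 1. In the leave-outs of wide genes, the probe sets counted as above background stayed those set on all 9 arrays. Whether a gene near that edge, such as Ttr, would stay above it without an array was not tested. Of all 73 named wide genes 45 stayed without any 1 array, and 28 left the top 5% in at least 1 case. The counts of wide genes per list without each array were added after seeing the data. Of 12 pairs, Egr1 and Junb had r = -0.27, and 0.029 with arrays centred on their medians, and neither passed.

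Baseline minus the other groups gave 0 calls, and 0 to 1 leaving out each array: without baseline replicate 4 it was Igf1r, named after its value was seen, at -0.59 (SE 0.10, limma adjusted p = 0.0328). After median centring of the arrays the median difference over probe sets was 0.06, and of those with an unadjusted p under 0.05, 987 were higher and 214 lower in baseline. Same-numbered arrays had correlations of -0.15 to 0.18, and 7 of the 20 were over 0.1. No values of differently numbered arrays were set beside them, so whether the numbers pair the arrays was not tested. With replicate number as a block there were 0 calls by limma, with 450 at an unadjusted p under 0.05 against 827 without it. Near background a probe set's rank ranged over a median of 16.2 percentile points, which limits any order there.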
